A study of Homo sapiens with 12 samples.

Results

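PAF1-AID cells were compared after 2 h and after 0 h in 500 µM auxin, with 2 libraries at each time: 4 of the 12 libraries of the series. The 4 were taken by the line and time in their labels. All are poly(A)-selected RNA-seq libraries of DLD-1, a human colorectal adenocarcinoma line, labelled PAF1-AID OsTIR1: PAF1 carries an auxin-inducible degron, and the plant receptor OsTIR1, expressed constitutively, directs the tagged protein to degradation when auxin is added. The other libraries, 2 per group, are PAF1-AID OsTIR1 cells at 6 h and SPT6-AID OsTIR1 cells, in which the histone chaperone SPT6 carries the degron, at 0, 2 and 6 h. All groups share the DLD-1 background, OsTIR1 and a tagged protein. The labels do not say whether the lines are single clones. They number the PAF1-AID libraries 3 and 4 and do not say whether the numbers stand for separate cultures. The p-values therefore reflect only library-to-library spread, possibly a technical one. Untagged cells in auxin were not analysed here, so loss of PAF1 and any action of auxin cannot be told apart.

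PAF1 is a subunit of the PAF1 complex, which travels with RNA polymerase II along genes. The complex supports the release of paused polymerase, the speed of elongation and the ubiquitylation of histone H2B. Short-lived mRNAs follow a change in their synthesis within hours, whereas stable mRNAs lag behind it. Poly(A)-selected RNA measures the standing amount of mRNA and not its synthesis.

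Counts assigned to human genes were 40562155, 43214582 at 0 h (replicates 3 and 4) and 41954792, 48237773 at 2 h. Fly reads, present in every library, came to 4.10% and 4.59% of the human counts at 0 h and 4.78% and 4.81% at 2 h. Of 12 colorectal epithelial markers, EPCAM stood at 778 to 934 CPM (counts scaled to a common library size) over the 4 libraries and KRT8 at 927 to 1442, while CDX1 was at 0 in all 4 and VIL1 at 0.105 or less. The other cell types' markers were near 0: those of fibroblasts, endothelium and neurons reached at most 3.33 CPM (COL1A1), and those of blood at most 0.662, except HBB at 19.9 to 24.3.

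The mRNA of PAF1 (ENSG00000006712, chromosome 19, 39385852 to 39391195) does not check the depletion, because the degron removes protein, which was not measured. It stood at 126 and 131 CPM at 0 h and 129.5 and 124 CPM at 2 h, so the groups overlap (log2 change -0.02 ± 0.12 ± SE, edgeR's quasi-likelihood test, adjusted p = 1). None of the 6 genes of the complex passed at 2 h. CTR9, the scaffold subunit, was at 74.8 and 78.9 CPM at 0 h and 87.8 and 97.00 CPM at 2 h, a log2 change of 0.27 ± 0.13 (edgeR adjusted p = 0.737). At 6 h it was at 144 and 136 CPM and passed (0.87, edgeR adjusted p = 0.00352). CDC73 (-0.16), LEO1 (-0.04), RTF1 (-0.02) and WDR61 (0.06), the other subunits, had log2 changes at 2 h of no more than their standard errors.

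Of 20791 genes tested, 31 passed an adjusted p of 0.05 (0.149%), 14 higher (0.0673%) and 17 lower (0.0818%), by edgeR's quasi-likelihood test with Benjamini-Hochberg adjustment over all genes. Among the genes that rose were CYP1A1, TIPARP and FOS, and among those that fell were PPP1R10, ETAA1 and DDIT3. The genes that rose ended at 1.71 to 10.3 times their 0 h level (median 3.16), and 11.4% to 58.8% of the 0 h level was left in those that fell (median 41.5%). 26 of the 31 changed at least 2-fold, and 28 are protein coding: all 17 that fell and 11 of the 14 that rose. In all 31 the 2 h libraries lay outside the range of the 0 h libraries, as they did above it in 17.2% and below it in 18.6% of all genes tested. In bulk RNA, fewer cells with a transcript and less of it per cell cannot be told apart.

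**Figure D1:**
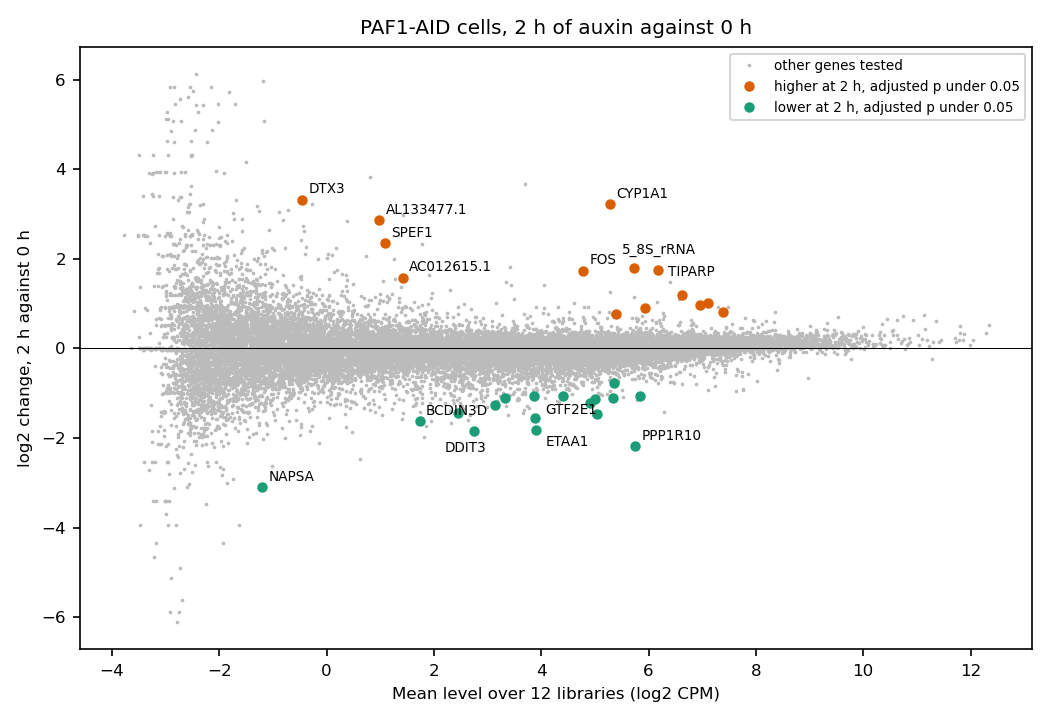
Each point is 1 gene: its mean level over the 12 libraries (x axis, log2 CPM) and its fitted log2 change from 0 h to 2 h in PAF1-AID cells (y axis). Orange points are the 14 genes that rose, green points the 17 that fell and grey points the other genes tested, and genes past 1.5 in either direction are named.

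The number of calls depends on the libraries and on the model. It was 274 with no filter on low counts and 274 with DESeq2's Wald test. It was 0 without 0 h replicate 3 or without 2 h replicate 4 (1313 and 1084 genes at an unadjusted p under 0.05, edgeR), 1 without 0 h replicate 4 or without 2 h replicate 3, 9 and 11 without either PAF1-AID 6 h library, and 6 to 8 without any 1 of the SPT6-AID 0 h and 2 h libraries. All 31 kept their direction under every setting that gave them a value. Their 2 h and 0 h libraries do not overlap, so leaving out 1 library could hardly turn a direction. At an unadjusted p under 0.05, 571 genes were higher (2.75%) and 966 lower (4.65%), and these shares are the background for the gene lists below. With fly counts as the scale the median of all genes moved from 0.01 to -0.22 and only CYP1A1 and PPP1R10 passed, so each log2 change here is relative to the bulk of human mRNA.

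Xenobiotic response genes held the steepest rise among well-counted genes. CYP1A1 (ENSG00000140465, chromosome 15, 74719542 to 74725610), a cytochrome P450 enzyme induced by the aryl hydrocarbon receptor, was at 3.42 and 5.67 CPM at 0 h and 35.04 and 50.1 CPM at 2 h. The groups are far apart, and CYP1A1 rose by 3.23 ± 0.29 on the log2 scale (edgeR adjusted p = 0.0076). TIPARP (ENSG00000163659, chromosome 3, 156673235 to 156706770), an ADP-ribosyltransferase that is induced by the receptor and restrains it, was at 31.4 and 41.7 CPM at 0 h and 115 and 132 CPM at 2 h. Both 2 h libraries were well above both 0 h libraries, and TIPARP rose by 1.76 ± 0.22 (edgeR adjusted p = 0.0291). It shares its locus with the opposite-strand gene TIPARP-AS1. Of the 12 genes listed for the receptor's pathway, these 2 passed, both higher, and 3 were higher and 1 lower at an unadjusted p under 0.05. CYP1B1, another cytochrome P450 of the pathway, was at 34.9 and 32.5 CPM at 0 h and 77.5 and 61.7 CPM at 2 h (1.05 ± 0.35, edgeR adjusted p = 0.432). AHR, the receptor itself, was at 143 and 146 CPM at 0 h and 82.6 and 89.3 CPM at 2 h (-0.74 ± 0.24, edgeR adjusted p = 0.393). The list median was 0.14 against 0.01 for all genes, and -0.09 with fly scaling.

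Immediate early genes, which cells transcribe within minutes of a stimulus, went both ways. FOS (ENSG00000170345, chromosome 14, 75278774 to 75282230), an AP-1 subunit, was at 4.70 and 5.28 CPM at 0 h and 18.1 and 15.2 CPM at 2 h and rose by 1.74 ± 0.22 (edgeR adjusted p = 0.0291). KLF10 (ENSG00000155090, chromosome 8, 102648779 to 102655902), a zinc finger factor induced by TGF-beta, was at 42.8 and 42.96 CPM at 0 h and 80.4 and 78.9 CPM at 2 h and rose by 0.89 ± 0.14 (edgeR adjusted p = 0.0453). In both genes the 2 h libraries lie clear of the 0 h libraries, and the KLF10 replicates nearly coincide. ZFP36L2 (ENSG00000152518, chromosome 2, 43222402 to 43226609), which binds AU-rich elements and speeds mRNA decay, was at 57.5 and 60.3 CPM at 0 h and 26.3 and 28.1 CPM at 2 h and fell by 1.12 ± 0.16 (edgeR adjusted p = 0.0361). JUNB, another AP-1 subunit, did not pass, at 89.7 and 94.9 CPM at 0 h and 176 and 173 CPM at 2 h, a log2 change of 0.92 ± 0.16 (edgeR adjusted p = 0.0671). Of the 44 immediate early genes 2 rose and 1 fell. At an unadjusted p under 0.05, 8 were higher and 8 lower, with a median of 0.07 that becomes -0.15 with fly scaling.

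A pair of stress genes moved in opposite directions. PPP1R15A (ENSG00000087074, chromosome 19, 48872392 to 48876057), also called GADD34, brings a phosphatase to eIF2-alpha and so ends the translational block of the stress response. It was at 90.2 and 109 CPM at 0 h and 179 and 209 CPM at 2 h and rose by 0.96 ± 0.14 (edgeR adjusted p = 0.0361). DDIT3 (ENSG00000175197, chromosome 12, 57516588 to 57521737), the transcription factor CHOP, which ATF4 induces under stress, was at 18.2 and 12.5 CPM at 0 h and 3.59 and 4.99 CPM at 2 h and fell by 1.84 ± 0.27 (edgeR adjusted p = 0.0363). The 0 h replicates of DDIT3 differ, yet both 2 h libraries are far below them. DDIT3 shares its locus with MARS and MBD6 on the opposite strand and with AC022506.1 and MIR616 on the same strand. They were the calls among the 23 genes measured for the ATF4 and unfolded protein responses, of which, both included, 2 were higher and 3 lower at an unadjusted p under 0.05, with a median of -0.10.

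Other protein-coding genes that rose have varied roles. PHLDA2 (ENSG00000181649, chromosome 11, 2928273 to 2929455), an imprinted gene, was at 65.4 and 74.5 CPM at 0 h and 147 and 134 CPM at 2 h and rose by 1.01 ± 0.12 (edgeR adjusted p = 0.0291). NXF1 (ENSG00000162231, chromosome 11, 62792123 to 62806302), the receptor that carries mRNA out of the nucleus, was at 86.4 and 85.2 CPM at 0 h and 144 and 157 CPM at 2 h and rose by 0.81 ± 0.12 (edgeR adjusted p = 0.0392). In both of these genes the replicates were close and the times did not overlap. ZNF574 (ENSG00000105732, chromosome 19, 42068477 to 42081549), a zinc finger gene that overlaps GRIK5 on the opposite strand, was at 27.1 and 29.96 CPM at 0 h and 48.6 and 49.2 CPM at 2 h and rose by 0.78 ± 0.12 (edgeR adjusted p = 0.0427). SPEF1 (ENSG00000101222, chromosome 20, 3777504 to 3781448), which encodes a microtubule-bundling protein of flagella and cilia, was at 0.525 and 0.596 CPM at 0 h and 2.41 and 3.31 CPM at 2 h and rose by 2.35 ± 0.31 (edgeR adjusted p = 0.0344). The last of them, DTX3 (ENSG00000178498, chromosome 12, 57604622 to 57609804), a ubiquitin ligase of the Deltex family, rests on few reads: 4 and 3 counts at 0 h and 45 and 27 at 2 h, a log2 change of 3.32 ± 0.51 (edgeR adjusted p = 0.0438).

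The other 3 genes that rose do not encode proteins or are not in the annotation used. AL133477.1 (ENSG00000286835), which has no entry in GENCODE 29, was at 0.388 and 0.367 CPM at 0 h and 2.21 and 3.29 CPM at 2 h and rose by 2.86 ± 0.33 (edgeR adjusted p = 0.0291). AC012615.1 (ENSG00000261526, chromosome 19, 1874871 to 1876169), a lincRNA overlapped by AC012615.5 on the opposite strand, was at 1.21 and 1.17 CPM at 0 h and 3.27 and 3.84 CPM at 2 h and rose by 1.58 ± 0.24 (edgeR adjusted p = 0.0453). Replicates of both genes were close at 0 h, and the 2 h libraries lie above them. A 5.8S ribosomal RNA gene (ENSG00000275757, scaffold KI270733.1, 173956 to 174108) was at 6.44 and 5.96 CPM at 0 h and 24.1 and 18.98 CPM at 2 h and rose by 1.80 ± 0.22 (edgeR adjusted p = 0.0291). Ribosomal RNA lacks a poly(A) tail and its gene has near-identical copies, so the assignment of these reads is uncertain.

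**Figure D2:**
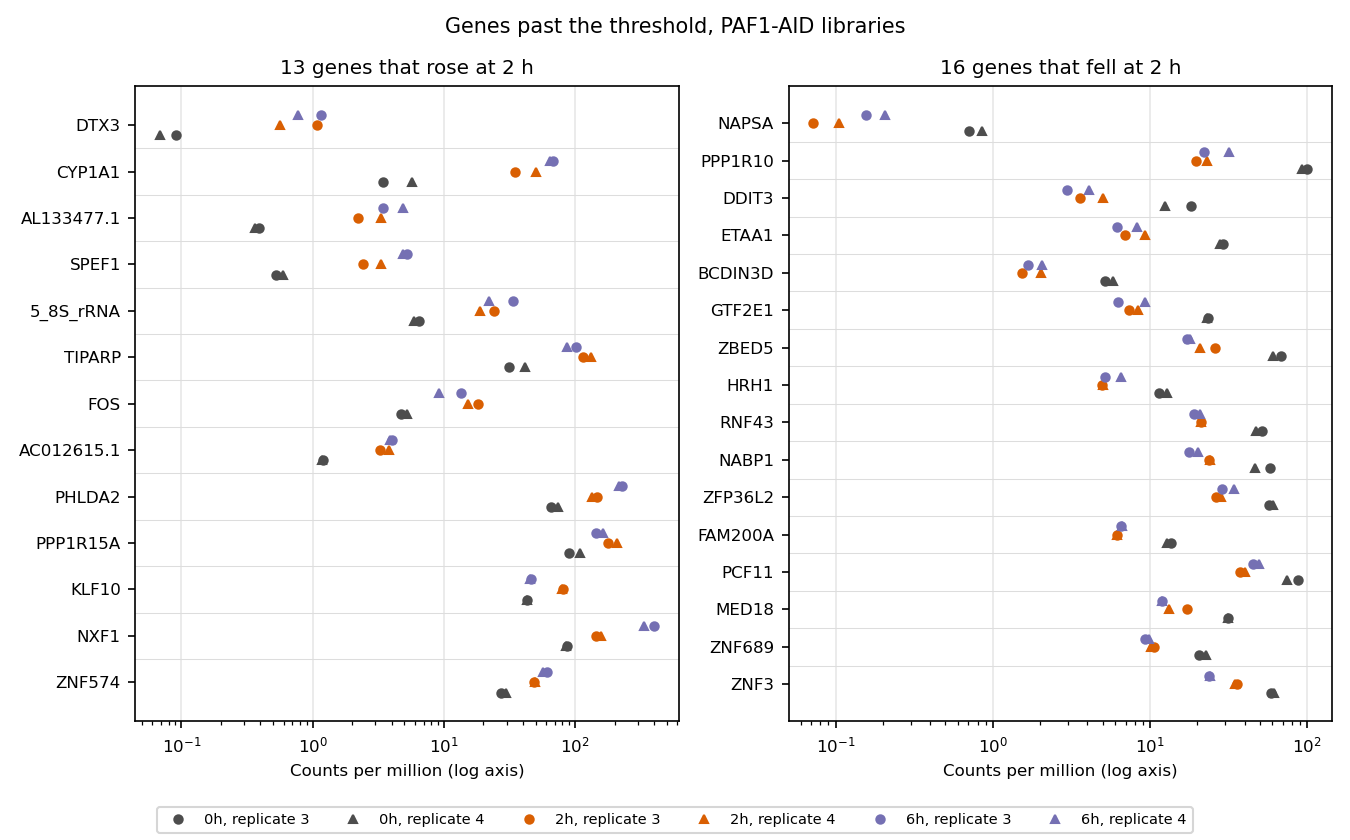
Level of 29 of the 31 genes, 13 that rose and 16 that fell, in every PAF1-AID library, in CPM on a log axis, ordered by the size of the change at 2 h. Grey is 0 h, orange 2 h and purple 6 h, with circles for replicate 3 and triangles for replicate 4. In every gene shown the orange points lie on 1 side of the grey points.

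Some promoters of the genes that rose hold a TATA box, the sequence TATAAA that binds TBP shortly before the start of transcription. RefSeq promoters (GRCh38.p14) were at hand for 22 of the 31 genes, 7 that rose and 15 that fell. In the 250 bases before the start, on either strand, TATAAA occurred in 4 of the 7 genes that rose and 2 of the 15 that fell, against 6.16% of the 11697 tested genes with a promoter and 11.1% of all 27305 promoters. The 4 are CYP1A1, FOS, PPP1R15A and NXF1, in which it begins 32, 33, 30 and 30 bases before the start. Of the 2 that fell, PPP1R10 has it 32 bases before the start and FAM200A first 210 bases before. The FAM200A window (chr7:99552115-99552364) lies well inside the GENCODE span of that gene. The last 100 bases before the start of the 4 that rose are shown in transcript direction, with the TATA box in capitals. The motifs were chosen after the genes were known, and a match is a description, not a binding site. Other motifs were searched too and are given with the CCAAT boxes below.
CYP1A1, chr15:74725529-74725628, minus strand: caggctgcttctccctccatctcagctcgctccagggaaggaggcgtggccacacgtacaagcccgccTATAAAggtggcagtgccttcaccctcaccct
FOS, chr14:75278728-75278827, plus strand: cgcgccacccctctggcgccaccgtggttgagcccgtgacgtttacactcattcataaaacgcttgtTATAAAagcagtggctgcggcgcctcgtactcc
PPP1R15A, chr19:48872321-48872420, plus strand: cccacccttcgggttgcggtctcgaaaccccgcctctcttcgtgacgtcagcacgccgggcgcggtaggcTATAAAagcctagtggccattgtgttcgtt
NXF1, chr11:62805441-62805540, minus strand: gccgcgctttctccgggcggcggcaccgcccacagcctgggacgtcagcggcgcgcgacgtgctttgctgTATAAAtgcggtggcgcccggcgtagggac

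The genes that fell included several of the transcription machinery itself. PPP1R10 (ENSG00000204569, chromosome 6, 30600400 to 30618612), also called PNUTS, holds protein phosphatase 1 on chromatin and acts with it in transcription termination. It was at 100.2 and 92.1 CPM at 0 h and 19.5 and 23.2 CPM at 2 h, with the 2 h replicates close together and far below both 0 h replicates. It fell by 2.17 ± 0.21 on the log2 scale (edgeR adjusted p = 0.0076). PCF11 (ENSG00000165494, chromosome 11, 83156988 to 83187451), which couples cleavage of the nascent RNA to termination, was at 87.1 and 74.04 CPM at 0 h and 37.1 and 40.3 CPM at 2 h and fell by 1.06 ± 0.15 (edgeR adjusted p = 0.0361). PPP1R10 overlaps MRPS18B on the opposite strand, and the PCF11 locus holds 3 non-coding genes. These 2 were the called members of 25 termination and 3′ end factors, of which 2 were higher and 7 lower at an unadjusted p under 0.05 (28.0% lower, against 4.65% of all genes), with a median of -0.06. Of the same list, CSTF1, a subunit of the cleavage stimulation factor, was at 29.1 and 29.8 CPM at 0 h and 13.6 and 13.6 CPM at 2 h (-1.11 ± 0.25, edgeR adjusted p = 0.146). ZC3H4, which restricts non-coding transcription, was at 84.2 and 57.1 CPM at 0 h and 38.3 and 35.5 CPM at 2 h (-0.94 ± 0.27, edgeR adjusted p = 0.334).

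Initiation factors contributed 2 genes. GTF2E1 (ENSG00000153767, chromosome 3, 120742637 to 120783069), the large subunit of TFIIE, was at 23.2 and 23.1 CPM at 0 h and 7.39 and 8.41 CPM at 2 h and fell by 1.55 ± 0.22 (edgeR adjusted p = 0.0361). MED18 (ENSG00000130772, chromosome 1, 28329002 to 28335967), a subunit of the Mediator head, was at 31.2 and 31.5 CPM at 0 h and 17.1 and 13.1 CPM at 2 h and fell by 1.05 ± 0.15 (edgeR adjusted p = 0.0363). The 0 h replicates of both genes nearly coincide and lie well above the 2 h replicates. GTF2E1 overlaps RABL3 on the opposite strand. It was the only call among 43 general transcription factors and RNA polymerase II subunits. Of these, 0 were higher and 3 lower at an unadjusted p under 0.05. The share lower was 6.98%, near the 4.65% of all genes, and the median was -0.01. GTF2A1, the TFIIA precursor, was at 90.6 and 64.98 CPM at 0 h and 51.9 and 45.7 CPM at 2 h (-0.67 ± 0.19, edgeR adjusted p = 0.282).

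Pausing and elongation factors gave no call among 31, with 1 higher and 6 lower at an unadjusted p under 0.05 (19.4% lower) and a median of 0.06. The lowest p belonged to MEPCE, the enzyme that caps 7SK RNA, which was at 48.8 and 53.5 CPM at 0 h and 26.8 and 23.7 CPM at 2 h (-1.02 ± 0.17, edgeR adjusted p = 0.0542). Other members of the 7SK particle had smaller differences. HEXIM1, the inhibitor of P-TEFb within it, was at 162 and 145 CPM at 0 h and 106 and 99.3 CPM at 2 h (-0.58 ± 0.16, edgeR adjusted p = 0.272), and LARP7 at 49.7 and 47.04 CPM at 0 h and 34.01 and 40.1 CPM at 2 h (-0.39 ± 0.13, edgeR adjusted p = 0.428). CCNT2, a cyclin of P-TEFb, was at 44.3 and 36.2 CPM at 0 h and 52.9 and 55.5 CPM at 2 h (0.43 ± 0.14, edgeR adjusted p = 0.421). Beyond this list, BCDIN3D (ENSG00000186666, chromosome 12, 49836039 to 49843129), an RNA methyltransferase related to MEPCE, was at 5.20 and 5.83 CPM at 0 h and 1.54 and 2.03 CPM at 2 h and fell by 1.62 ± 0.25 (edgeR adjusted p = 0.0438). Of 11 genes of H2B ubiquitylation, the mark the PAF1 complex supports, none passed and none reached an unadjusted p of 0.05.

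ETAA1 and NABP1, which act in genome maintenance, also fell. ETAA1 (ENSG00000143971, chromosome 2, 67397319 to 67412089), an activator of the ATR checkpoint kinase, was at 28.96 and 28.1 CPM at 0 h and 6.91 and 9.31 CPM at 2 h and fell by 1.81 ± 0.24 (edgeR adjusted p = 0.0358). NABP1 (ENSG00000173559, chromosome 2, 191678068 to 191696659), a single-stranded DNA binding protein, was at 58.1 and 46.9 CPM at 0 h and 23.8 and 24.02 CPM at 2 h and fell by 1.13 ± 0.15 (edgeR adjusted p = 0.0358). No other GENCODE gene overlaps ETAA1, and the 2 h replicates of NABP1 nearly coincide. ETAA1 was the 1 call among 30 DNA repair and checkpoint genes. Of these, 0 were higher and 4 lower at an unadjusted p under 0.05. The share lower was 13.3%, against 4.65% of all genes, and the median was -0.09. PALB2, which links BRCA1 and BRCA2, was at 34.9 and 37.1 CPM at 0 h and 19.95 and 21.9 CPM at 2 h (-0.78 ± 0.19, edgeR adjusted p = 0.2). FANCM, a DNA translocase, was at 29.3 and 29.4 CPM at 0 h and 19.6 and 20.9 CPM at 2 h (-0.53 ± 0.14, edgeR adjusted p = 0.231).

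Zinc finger genes mostly had lower levels at 2 h, and few of them passed individually. Of 371 measured ZNF genes, which mostly encode C2H2 zinc finger proteins, ZNF689 and ZNF3 fell and ZNF574 rose. ZNF689 (ENSG00000156853, chromosome 16, 30602558 to 30624012) was at 20.4 and 22.6 CPM at 0 h and 10.6 and 10.2 CPM at 2 h and fell by 1.05 ± 0.15 (edgeR adjusted p = 0.0363). ZNF3 (ENSG00000166526, chromosome 7, 100064033 to 100082548) was at 58.99 and 61.2 CPM at 0 h and 35.98 and 34.8 CPM at 2 h and fell by 0.77 ± 0.12 (edgeR adjusted p = 0.0453). Replicates were close in both genes at both times, although ZNF3 overlaps ZSCAN21 on the opposite strand. At an unadjusted p under 0.05, 98 ZNF genes were lower (26.4%, against 4.65% of all genes) and 6 higher. A fitted change below 0 was found in 285 of the 371, while 51.6% of all genes were above 0, and the median was -0.29, or -0.51 with fly scaling. ZNF616 came closest to passing among the rest: 7.19 and 4.01 CPM at 0 h and 1.68 and 1.15 CPM at 2 h (-1.98 ± 0.33, edgeR adjusted p = 0.0588). In SPT6-AID cells at 2 h the ZNF median was lower still, -0.49 against 0.01 for all genes. There 23 of the 371 passed lower and 0 higher, against 0.462% and 0.0866% of all genes.

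The lower ZNF levels in PAF1-AID cells were not limited to weakly or strongly expressed genes. In classes of mean log2 CPM under 1, 1 to 3, 3 to 5 and 5 or more, ZNF medians were -0.45, -0.44, -0.26 and -0.10, against 0.00, -0.08, -0.06 and 0.05 for other protein-coding genes. The share lower at an unadjusted p under 0.05 was 18.8%, 36.8%, 28.3% and 13.3% in those classes, against 3.08%, 8.38%, 8.99% and 2.80%. By gene length the ZNF share was 15.8% against 6.47% under 5 kb, 34.1% against 6.37% at 5 to 20 kb, 25.5% against 5.35% at 20 to 50 kb, 20% against 4.41% at 50 to 100 kb and 11.8% against 3.29% at 100 to 200 kb. At 200 kb or more it was 0 of 4 ZNF genes against 1.69%. The 37 ZBTB genes, another zinc finger family, gave no call, with 1 higher and 9 lower at an unadjusted p under 0.05. Their median was -0.11 (-0.44 in SPT6-AID cells at 2 h). ZBTB14 was at 20.1 and 19.7 CPM at 0 h and 9.89 and 10.4 CPM at 2 h (-0.97 ± 0.26, edgeR adjusted p = 0.259).

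**Figure D3:**
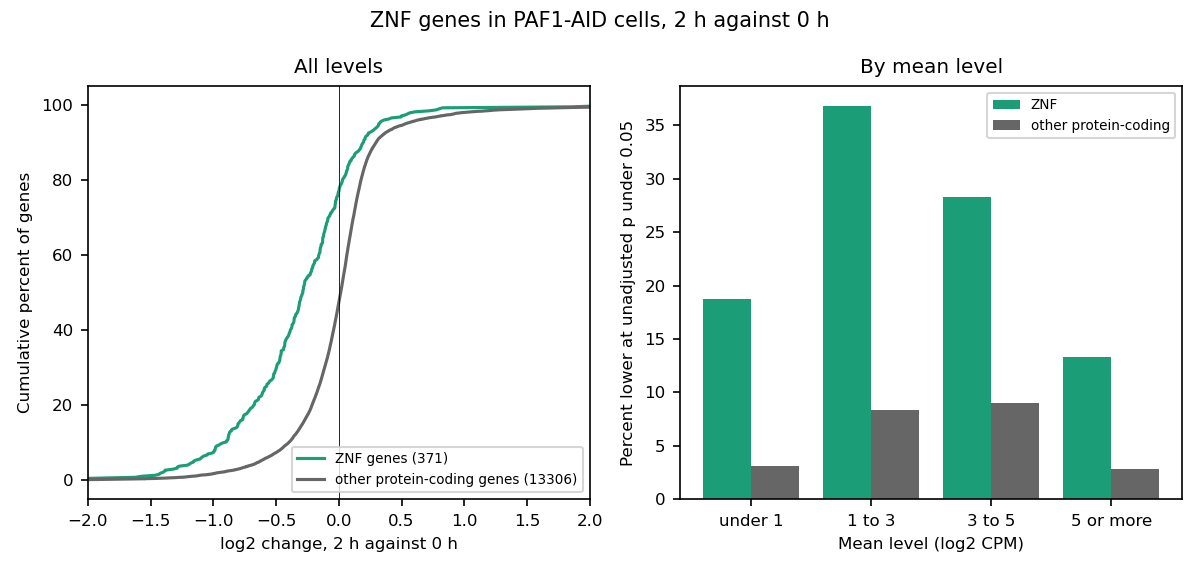
Left, cumulative percent of genes (y axis) by log2 change from 0 h to 2 h in PAF1-AID cells (x axis) for the 371 ZNF genes (green) and other protein-coding genes (grey). Right, percent of each set lower at an unadjusted p under 0.05, by mean level in log2 CPM. The ZNF curve lies to the left, and the ZNF share is the larger in every level class, at 36.8% against 8.38% for a mean log2 CPM of 1 to 3.

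2 genes derived from hAT transposases fell as well. ZBED5 (ENSG00000236287, chromosome 11, 10812074 to 10858796) was at 68.1 and 60.6 CPM at 0 h and 26.1 and 20.8 CPM at 2 h and fell by 1.46 ± 0.20 (edgeR adjusted p = 0.0361). FAM200A (ENSG00000221909, chromosome 7, 99546308 to 99558536) was at 13.7 and 12.9 CPM at 0 h and 6.21 and 6.17 CPM at 2 h and fell by 1.10 ± 0.17 (edgeR adjusted p = 0.0494). The replicates of FAM200A at 2 h are nearly equal, and those of ZBED5 differ by less than their distance from 0 h. ZBED5 overlaps ZBED5-AS1, and FAM200A overlaps ZNF655, each on the opposite strand.

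Of genes with roles at membranes and organelles, RNF43 (ENSG00000108375, chromosome 17, 58352500 to 58417595), a ubiquitin ligase that removes WNT receptors and is itself induced by WNT signalling, was at 51.7 and 46.9 CPM at 0 h and 21.2 and 21.1 CPM at 2 h. It fell by 1.22 ± 0.18 (edgeR adjusted p = 0.0363), and its span overlaps SUPT4H1 and AC004687.2 on the same strand. RNF43 was the 1 call among 23 measured WNT targets, of which 1 was higher and 7 lower at an unadjusted p under 0.05 (30.4% lower), with a median of -0.22. AXIN2, a scaffold that feeds back on the pathway, was at 365 and 366 CPM at 0 h and 174 and 208 CPM at 2 h (-0.94 ± 0.20, edgeR adjusted p = 0.131). SOX4, a transcription factor, was at 309.8 and 236 CPM at 0 h and 149 and 132 CPM at 2 h (-0.95 ± 0.20, edgeR adjusted p = 0.118). The 2 h libraries of both were below their 0 h libraries, although neither passed.

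HRH1 (ENSG00000196639, chromosome 3, 11137093 to 11263557), the histamine H1 receptor, was at 11.4 and 12.8 CPM at 0 h and 4.98 and 5.06 CPM at 2 h and fell by 1.27 ± 0.19 (edgeR adjusted p = 0.0392). NAPSA (ENSG00000131400, chromosome 19, 50358477 to 50365830), the aspartic protease napsin A, has the largest fitted fall, from 31 and 37 counts at 0 h to 3 and 5 at 2 h, a log2 change of -3.09 ± 0.44 (edgeR adjusted p = 0.0361). So few counts make its size uncertain, and NR1H2 overlaps it on the opposite strand.

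CCAAT boxes, which bind the factor NF-Y, were searched for in the same way. CCAAT occurred on either strand in the 250 bases before the start in 10 of 15 genes that fell with a RefSeq promoter and in 1 of 7 that rose, against 34.8% of the tested genes and 33.0% of all promoters. The 10 are PPP1R10, ETAA1, NABP1, ZBED5, GTF2E1, NAPSA, PCF11, ZNF689, DDIT3 and RNF43. RefSeq starts can differ from the ends of the GENCODE spans given above. The NAPSA window (chr19:50369303-50369552) lies outside its span, and the ZNF689 window (chr16:30610434-30610683) lies well inside its span. Of the 7 with more than 1 match, the 4 with the largest falls are shown, PPP1R10 and GTF2E1 with all 250 bases and ZBED5 and DDIT3 with the last 100, which hold both of their matches, with the box or its reverse complement ATTGG in capitals. This motif too was picked with the genes known.
PPP1R10, chr6:30617244-30617493, minus strand: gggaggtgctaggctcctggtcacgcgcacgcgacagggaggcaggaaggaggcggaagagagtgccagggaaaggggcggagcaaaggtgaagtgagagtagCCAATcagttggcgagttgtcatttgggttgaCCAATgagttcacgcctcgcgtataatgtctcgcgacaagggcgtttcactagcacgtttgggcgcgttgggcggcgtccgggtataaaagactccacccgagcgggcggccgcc
GTF2E1, chr3:120742494-120742743, plus strand: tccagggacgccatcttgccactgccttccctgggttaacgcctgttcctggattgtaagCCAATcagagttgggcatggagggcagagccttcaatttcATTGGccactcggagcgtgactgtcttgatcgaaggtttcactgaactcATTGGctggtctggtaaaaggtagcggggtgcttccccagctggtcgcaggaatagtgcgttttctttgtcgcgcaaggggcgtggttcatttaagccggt
ZBED5, chr11:10858054-10858153, minus strand: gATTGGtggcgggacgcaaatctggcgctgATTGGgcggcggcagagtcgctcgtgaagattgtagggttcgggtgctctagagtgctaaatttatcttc
DDIT3, chr12:57520515-57520614, minus strand: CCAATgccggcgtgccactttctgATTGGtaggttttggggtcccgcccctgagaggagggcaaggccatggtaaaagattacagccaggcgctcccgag

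Other lists gave no call. Of 24 measured snoRNA host genes, whose introns release small nucleolar RNAs, 0 were higher and 8 lower at an unadjusted p under 0.05 (33.3% lower), with a median of -0.24. EPB41L4A-AS1 was at 12.1 and 13.2 CPM at 0 h and 5.73 and 7.43 CPM at 2 h (-0.94 ± 0.18, edgeR adjusted p = 0.0923), and TAF1D, which hosts snoRNAs and encodes a factor of RNA polymerase I initiation, at 106 and 98.97 CPM at 0 h and 55.02 and 64.9 CPM at 2 h (-0.77 ± 0.21, edgeR adjusted p = 0.272). Splicing regulators were split, with 4 higher and 4 lower among 28 at an unadjusted p under 0.05. That is 14.3% each, against 2.75% higher and 4.65% lower of all genes. The kinase CLK4, which phosphorylates SR proteins, was at 13.6 and 13.1 CPM at 0 h and 6.02 and 6.94 CPM at 2 h (-1.04 ± 0.18, edgeR adjusted p = 0.0737), whereas CLK3 was at 55.6 and 59.04 CPM at 0 h and 74.03 and 76.02 CPM at 2 h (0.39 ± 0.11, edgeR adjusted p = 0.288). Of 22 measured YAP and TEAD targets 1 was higher and 1 lower at an unadjusted p under 0.05 (4.55% each), near the shares of all genes: ANKRD1 was at 50.7 and 50.5 CPM at 0 h and 17.8 and 18.4 CPM at 2 h (-1.48 ± 0.26, edgeR adjusted p = 0.0798) and CCN2 at 32.2 and 29.8 CPM at 0 h and 53.8 and 44.9 CPM at 2 h (0.67 ± 0.15, edgeR adjusted p = 0.168), and the list median was 0.04. ERK feedback genes had 3 higher (20%) and 2 lower (13.3%) among 15 at the same threshold, with a median of -0.06. DUSP6 was at 266 and 332 CPM at 0 h and 179 and 226 CPM at 2 h (-0.56 ± 0.17, edgeR adjusted p = 0.368).

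The 13 mRNAs encoded by mitochondrial DNA all had fitted changes above 0, with a median of 0.60, or 0.38 with fly scaling. None passed, and 7 were higher at an unadjusted p under 0.05. Their summed level was 14300 and 20301 CPM at 0 h and 25407 and 24426 CPM at 2 h, so the 0 h libraries differ from each other by more than the 2 h libraries do. MT-CYB, a subunit of respiratory complex III, was at 783 and 1287 CPM at 0 h and 1802 and 1605 CPM at 2 h (0.72 ± 0.24, edgeR adjusted p = 0.424). The 10 colorectal epithelial markers tested also all had fitted changes above 0, with none passing and a median of 0.27. Their summed level was 3651 and 4754 CPM at 0 h and 4868 and 5162 CPM at 2 h, with CDX2, an intestinal transcription factor, at 168 and 208 CPM at 0 h and 294 and 306 CPM at 2 h (0.68 ± 0.18, edgeR adjusted p = 0.27). Both sums and the share of fly reads were lowest in 0 h replicate 3, and the part of that library in these values was not tested. Of 85 cytosolic ribosomal protein genes 0 were higher and 0 lower at an unadjusted p under 0.05, with a median of 0.08 that becomes -0.14 with fly scaling.

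**Figure D4:**
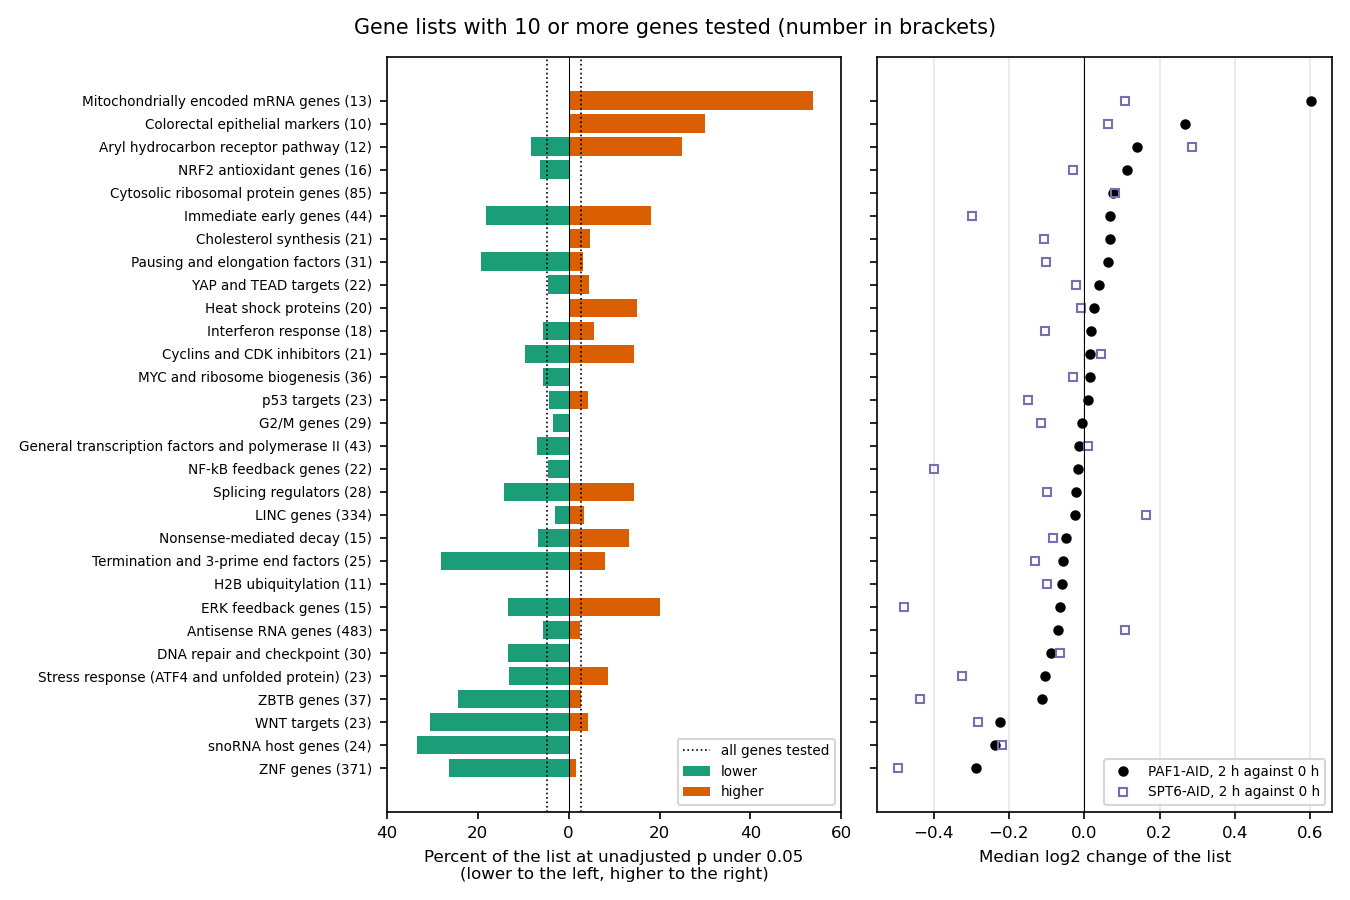
Gene lists with at least 10 genes tested. Left, percent of each list lower (green) or higher (orange) at an unadjusted p under 0.05 in PAF1-AID cells at 2 h, with dotted lines at the shares of all genes tested, 4.65% and 2.75%. Right, the median log2 change of each list in PAF1-AID cells (black) and SPT6-AID cells (purple squares) at 2 h, from 0.60 for the mitochondrially encoded mRNAs to -0.29 for the ZNF genes in PAF1-AID cells.

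At 6 h most of these changes were still present. The 6 h comparison uses the same 0 h libraries, so the values are given side by side and not as a second test. Of the 14 genes that rose at 2 h, 13 were called higher at 6 h (4.20% of all genes were), and of the 17 that fell all 17 were called lower (6.70% of all genes). KLF10 was the exception: at 46.1 and 45.6 CPM its 6 h level was near its 0 h level (log2 change 0.10, edgeR adjusted p = 0.727). Of the genes that rose, the 6 h libraries were both above the 2 h libraries in 8, both below in 4 and overlapping in 2. Over all genes these libraries did not overlap in 48.9%. FOS (13.4 and 9.20 CPM at 6 h), TIPARP (102 and 86.7) and PPP1R15A (144 and 164) were, like KLF10, below their 2 h levels. NXF1 went on to 398 and 333 CPM (log2 change 2.09 from 0 h), CYP1A1 to 68.2 and 64.7 and PHLDA2 to 226 and 216.

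Of the 17 genes that fell, the 6 h libraries were below the 2 h libraries in 6, above them in 6 and overlapping in 5. ZNF3 went from 35.98 and 34.8 CPM at 2 h to 23.7 and 24.2 at 6 h, and MED18 from 17.1 and 13.1 to 11.9 and 11.96. PCF11 was at 45.01 and 49.1 CPM at 6 h, above its 37.1 and 40.3 at 2 h and below its 0 h level. PPP1R10, at 21.9 and 31.8 CPM at 6 h, overlapped its 2 h values.

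The 2 h response of the SPT6-AID cells, which shares no library with that of the PAF1-AID cells, was read for the same genes. In SPT6-AID cells 114 genes passed at 2 h (0.548%), 18 higher (0.0866%) and 96 lower (0.462%), and 8 of them were among the 31 and in the same direction: 25.8% of the PAF1 genes and 7.02% of the SPT6 genes. These were CYP1A1, AL133477.1, the 5.8S rRNA gene and FOS, which rose in both lines, and ZFP36L2, PCF11, ZNF689 and DDIT3, which fell in both. All 17 genes that fell in PAF1-AID cells had fitted changes below 0 in SPT6-AID cells, with medians of -1.27 and -0.87. Of the 14 that rose, 11 were above 0 in SPT6-AID cells, as were 52.3% of all genes, and the medians were 1.66 and 0.36. KLF10 and ZNF574 were below 0 there.

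The 31 genes were picked for passing in PAF1-AID cells, which favours a larger change there, so their sizes in the lines are given side by side. The test of the difference between the lines passed for 1 of them. ZNF574 was at 35.3 and 36.3 CPM at 0 h and 24.7 and 24.8 CPM at 2 h in SPT6-AID cells, a log2 change of -0.53. Its difference between the lines was 1.31 (interaction by edgeR's quasi-likelihood test, adjusted p = 0.0443). TIPARP was at 33.6 and 40.2 CPM at 0 h and 57.3 and 42.1 CPM at 2 h in SPT6-AID cells (difference 1.33, edgeR adjusted p = 0.517). PPP1R10 was at 93.1 and 103 CPM, then 45.4 and 57.9 (difference -1.25, edgeR adjusted p = 0.494). CYP1A1, the 5.8S rRNA gene and FOS changed more in SPT6-AID cells, FOS from 7.66 and 6.95 to 66.2 and 66.1 CPM (difference -1.44, edgeR adjusted p = 0.327). For none of these except ZNF574 was a difference between the lines shown.

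Over all genes, 7 passed the test of the difference (0.0337%). Across the 14896 genes with a mean of at least 1 CPM, the changes of the lines had a Pearson r of 0.60 and a Spearman rho of 0.52, a description across genes, which are not independent replicates. Of the 96 genes that fell in SPT6-AID cells, 77 had a fitted change below 0 in PAF1-AID cells, with medians of -1.04 and -0.38. Of the 18 that rose in SPT6-AID cells, 15 were above 0 in PAF1-AID cells, with medians of 3.12 and 1.02. Over all genes tested, 51.6% were above 0 in PAF1-AID cells.

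**Figure D5:**
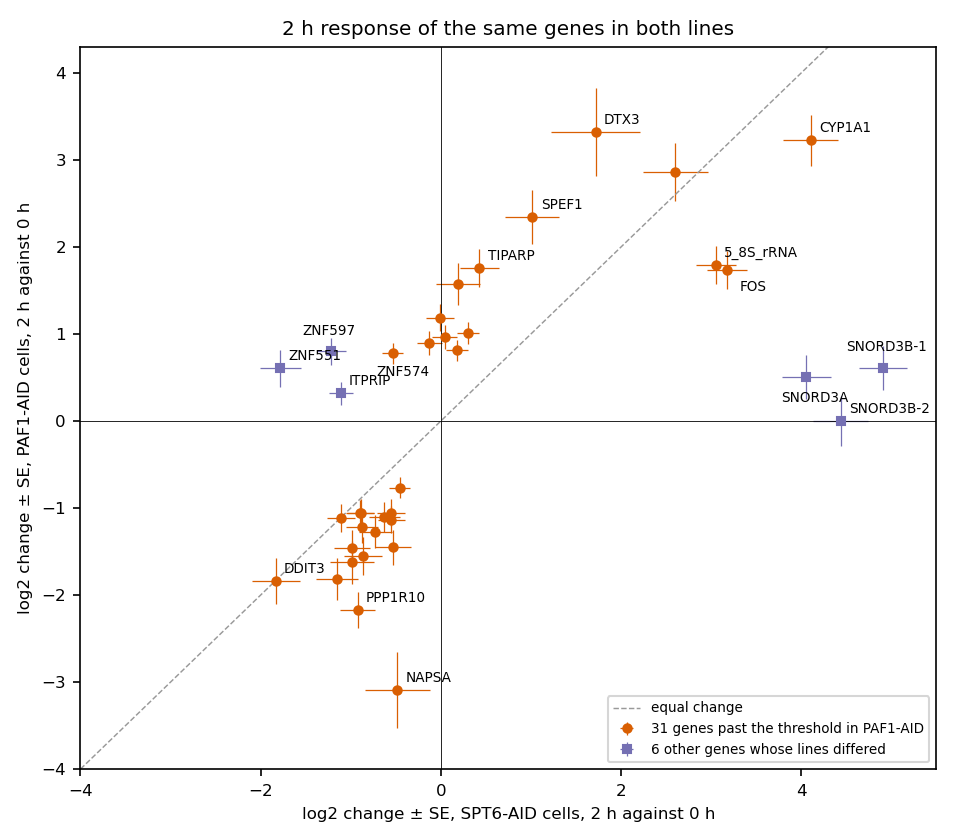
log2 change from 0 h to 2 h with its standard error in SPT6-AID cells (x axis) and PAF1-AID cells (y axis) for the 31 genes past the threshold in PAF1-AID cells (orange) and the 6 other genes whose lines differed (purple). The dashed line marks equal change. All 17 genes that fell lie below 0 on both axes.

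Genes that rose were short. By the deposited gene length, the median was 4.56 kb for the genes that rose and 18.2 kb for those that fell, against 17.8 kb for all genes tested. 13 of the 14 that rose and 10 of the 17 that fell were under 20 kb, as were 52.4% of all genes tested. None of the 31 reached 200 kb, and the longest that fell was HRH1 at 126 kb. The share of genes lower at an unadjusted p under 0.05 was 3.44% under 5 kb, 6.63% at 5 to 20 kb, 5.69% at 20 to 50 kb, 4.32% at 50 to 100 kb, 3.23% at 100 to 200 kb and 1.66% at 200 kb or more. The share higher went from 3.47% under 5 kb to 1.11% at 200 kb or more. Medians of these classes lay between -0.01 and 0.04, and at 200 kb or more the median was 0.04.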

How the data were processed

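The 12 libraries were grouped by line and auxin time from their labels, 2 per group, and every count column matched 1 sample by name. The authors deposited whole-number read counts per gene, not normalized, and gene lengths in bases. The tools named are featureCounts 2.0.0, STAR 2.7.5 and cutadapt 1.14, and the builds BDGP6 and GRCh38, per the submitters' processing notes. The libraries are directional per the labels' protocols. The strand setting, annotation release and source of the fly reads are not given in the sources used here, so overlapping and near-identical genes are uncertain.

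In R 4.3.3, human genes passing filterByExpr (20791 of 60666 rows) were scaled by TMM, and 6 group means were fitted over all 12 libraries (6 residual degrees of freedom) with edgeR 4.0.16, prior count 0.125. Contrasts were tested by quasi-likelihood with Benjamini-Hochberg adjustment at 0.05, and standard errors come from the log2 change and the F statistic (their quotient, with the root of F). CPM values use TMM-scaled library sizes. Replicates were not copies: chi-square per degree of freedom between libraries of a group was 34.1 to 63.1. Gene positions came from GENCODE 29, matched by identifier for 58420 rows holding 99.98% of human counts, and promoters from RefSeq on GRCh38.p14. The fit was tested on simulated data.

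The comparison, members and gene lists were chosen with earlier results of these data known. Named genes were PAF1 and its complex, every gene past the threshold at 2 h, and in each list the 4 members of lowest p. All were recomputed under every alternative, and which of the list members to describe, like the markers given by level, was chosen after their values were seen. Values of 2 called genes are not reported here. Lists are described by counts and medians, with no test. Alternatives were DESeq2's size factors, total human or fly counts, no filter, a mean of at least 1 CPM, a prior count of 2, limma-voom (limma 3.58.1), DESeq2 1.42.0, fits of fewer libraries, a replicate block and leaving out each library.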

Additional observations from a re-analysis of the deposited data

Results flagged for a closer look

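The change at 2 h differed between the PAF1-AID and SPT6-AID lines for 7 genes by edgeR's quasi-likelihood test of the interaction with Benjamini-Hochberg adjustment, given here as the PAF1-AID change minus the SPT6-AID change. SNORD3B-2 (-4.44), SNORD3B-1 (-4.31) and SNORD3A (-3.56), near-identical copies of U3 snoRNA whose reads cannot be assigned with certainty, rose in SPT6-AID cells and did not pass in PAF1-AID cells. SNORD3A was at 2.01 and 2.13 CPM at 0 h and 3.30 and 2.58 CPM at 2 h in PAF1-AID cells, and at 1.37 and 1.78 CPM, then 24.5 and 28.0 CPM, in SPT6-AID cells. ZNF551 (2.39), ZNF597 (2.01) and ITPRIP (1.43) fell in SPT6-AID cells and had fitted changes above 0 in PAF1-AID cells that did not pass. ZNF597 was at 11.2 and 13.1 CPM at 0 h and 20.1 and 22.1 CPM at 2 h in PAF1-AID cells, and at 15.2 and 14.5 CPM, then 6.70 and 6.11 CPM, in SPT6-AID cells. ZNF574 (1.31) rose in PAF1-AID cells and did not pass in SPT6-AID cells, where its fitted change was -0.53. The 4 differences above 0 are fragile: 0 differences above 0 passed when any 1 of the 8 libraries of 0 h and 2 h was left out.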

How the results depend on the processing

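The 31 calls at 2 h became 29 with DESeq2's size factors, 29 with total human counts, 28 at a mean of at least 1 CPM, 31 with a prior count of 2 and 36 with limma-voom. They became 2 with fly counts as the scale, 274 with no filter (100 higher, 174 lower), 274 with DESeq2's Wald test (66 higher, 208 lower) and 11 in the 8 libraries of 0 h and 2 h. Fits of the 6 PAF1-AID libraries alone, or of their 4 libraries of 0 h and 2 h alone, gave 0 calls by edgeR (1678 and 1401 genes at an unadjusted p under 0.05), whereas DESeq2, added after seeing the data, called 446 and 309. Leaving out each library in turn gave 0 to 37 calls, or 0 to 39 when the genes of the full fit were kept, a setting also added after seeing the data; a lone remaining library was assumed to vary like the others. The 7 differences between lines became 7 with DESeq2's size factors, 5 with total human counts, 4 with fly counts, 34 with no filter, 10 at a mean of at least 1 CPM, 4 with limma-voom, 57 with DESeq2's Wald test and 3 in the 8 libraries of 0 h and 2 h. Leaving out each library gave 0 to 7, and 0 came from the fit that lacked PAF1-AID 2 h replicate 4 (edgeR, 459 at an unadjusted p under 0.05). Except where fewer genes or libraries entered the fit, the cause of these shifts was not tested.

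The labels do not say what a replicate number stands for. With the number as a replicate block, 1452 genes were called at 2 h (480 higher, 972 lower), all 31 included, and 240 differences between lines. Same-numbered PAF1-AID libraries of 0 h and 2 h deviated from their group means together (r = 0.775 across 14896 genes), as 0 h and 6 h (0.736) and 2 h and 6 h (0.825) did. With 2 libraries per group each pair's deviations are mirror images, so this is a hint from the data.

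Of 5501 alternatives for single genes, 4551 kept direction and side of the threshold, 667 lost the call, 244 gained one and 39 changed sign, none of them in the 31 genes called. With fly counts as the scale the log2 change became -0.155 for WDR61, -0.0139 for RNF40, -0.0737 for RELA, -0.0341 for ACACA, -0.0366 for ME1, -0.0138 for PGD, -0.199 for CD14 and -0.256 for ITGAM. With total human counts as the scale the log2 change became -0.0119 for WDR61, -0.0541 for CD14 and -0.0643 for ITGAM. Leaving out each library gave log2 changes of -0.022 to 0.0776 for CD14, -0.566 to 0.251 for COL1A1, -0.806 to 2.41 for ITGAM, -0.156 to 0.0731 for LEO1, -0.044 to 0.0201 for PAF1, -0.18 to 0.135 for RTF1, -3.44 to 0.849 for TP53INP1 and -0.0631 to 0.206 for WDR61. With the genes of the full fit kept, the changes of the other sign were -0.0255 for CD14, 0.25 or 0.0612 for COL1A1, -0.534 or -0.813 for ITGAM, 0.0697 or 0.0486 for LEO1, 0.0127 or 0.0126 for PAF1, 0.131 or 0.016 for RTF1, 0.848 for TP53INP1 and -0.0621 or -0.0679 for WDR61. Of 392 alternatives for medians of lists and length classes, 323 moved by less than the spread between replicates and 69 by more. Depth limits DTX3 and NAPSA most, whose smaller groups hold 3 to 5 counts per library.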
